A study of Mus musculus with 14 samples.

Results

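The interferon-inducible PARP family was followed here through Parp9, Parp10, Parp11, Parp12 and Parp14, with Parp1 and Parp2 as members that interferon is not known to induce. Each of these 7 genes, out of 19752 genes with a probe set of a single symbol on the array, was read through the brightest probe set annotated to that symbol alone, and each had 1 such probe set. All 7 passed the filter on dim probe sets, as did 11851 genes in all.

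Poly-ADP-ribose polymerases (PARPs) transfer ADP-ribose from NAD onto proteins. Parp1 and Parp2 sense broken DNA and build ADP-ribose chains, while most other members add a single unit or, like Parp9, act mainly through macrodomains that bind ADP-ribose. The type I interferon receptor carries the kinases JAK1 and TYK2, and its signal switches on antiviral genes, among them several PARPs that restrict viruses or shape the response itself.

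RNA came from splenic CD4+ T cells of male C57BL/6 mice, 6 weeks old, obtained by negative selection. All cells were activated on CD3/28 beads for 48 h and then held with interferon alpha (IFNa, 100 U/ml) and 1 of 7 JAK inhibitors, each at its IC80, for 2 h or 8 h, before hybridisation to Affymetrix Mouse Gene 1.0 ST arrays. There were 14 arrays, 1 for each inhibitor and time. The inhibitors labelled JAK1, JAK1/2, PAN and TYK2 form the JAK1/TYK2 class (n = 4, with PAN taken to cover JAK1 and TYK2), and the inhibitor labelled JAK2 and those named IFN.6226 and IFN.6228, both labelled JAK3, form the JAK2/JAK3 class (n = 3). JAK1/2 and PAN also cover kinases of the second class, and no array of cells free of inhibitor, or of interferon, was used here. Every value below is therefore a difference between inhibitors or between times, not an induction by interferon. No array was repeated, so p-values of the class comparisons, and of the changes within a class, measure the spread between inhibitors. Those for times, single inhibitors and pairs measure noise together with any inequality of the time change between inhibitors. Nothing in the labels tells whether the arrays share animals or cultures.

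Promoter windows of 300 bases, from 250 before to 50 after a transcript start, were available from RefSeq (GRCm38.p6) for 4 of the 7 members, namely Parp11, Parp12, Parp1 and Parp2, and for Dtx3l, which encodes the ubiquitin ligase that partners PARP9. They are shown for Parp11, which holds interferon motifs, for Parp12, which differed most between the inhibitor classes, for Dtx3l, which moved with the family, and for Parp1, which overlapped between the classes. Parp9, Parp10 and Parp14 are named only. Capitals mark matches to an interferon-stimulated response element, searched as GAAA followed by any 2 bases and GAAA again, and to a gamma-activated site, searched as TTCNNNGAA, both on either strand. Each is written from 5′ to 3′ on the strand of its gene, at chr6:127446590-127446889 (plus strand) for the first of the Parp11 windows, chr6:39118300-39118599 (minus strand) for Parp12, chr16:35938978-35939277 (minus strand) for Dtx3l and chr1:180568641-180568940 (plus strand) for Parp1.
Parp11: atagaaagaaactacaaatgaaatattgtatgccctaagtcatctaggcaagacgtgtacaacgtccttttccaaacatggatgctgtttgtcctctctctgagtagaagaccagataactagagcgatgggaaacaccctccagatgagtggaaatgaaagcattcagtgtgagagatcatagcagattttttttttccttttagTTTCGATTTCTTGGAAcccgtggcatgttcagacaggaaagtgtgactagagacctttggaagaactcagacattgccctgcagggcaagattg
Parp12: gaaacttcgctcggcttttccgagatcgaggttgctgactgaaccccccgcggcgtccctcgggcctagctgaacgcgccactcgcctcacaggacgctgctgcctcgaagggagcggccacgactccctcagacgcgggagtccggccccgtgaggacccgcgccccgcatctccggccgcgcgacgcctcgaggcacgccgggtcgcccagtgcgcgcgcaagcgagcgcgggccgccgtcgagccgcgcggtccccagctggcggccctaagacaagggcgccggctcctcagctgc
Dtx3l: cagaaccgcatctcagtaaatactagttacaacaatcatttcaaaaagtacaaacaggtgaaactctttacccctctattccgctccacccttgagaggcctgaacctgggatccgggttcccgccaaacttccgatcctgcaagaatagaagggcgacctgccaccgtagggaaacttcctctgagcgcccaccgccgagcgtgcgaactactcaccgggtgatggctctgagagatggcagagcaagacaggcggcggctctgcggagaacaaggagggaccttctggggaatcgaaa
Parp1: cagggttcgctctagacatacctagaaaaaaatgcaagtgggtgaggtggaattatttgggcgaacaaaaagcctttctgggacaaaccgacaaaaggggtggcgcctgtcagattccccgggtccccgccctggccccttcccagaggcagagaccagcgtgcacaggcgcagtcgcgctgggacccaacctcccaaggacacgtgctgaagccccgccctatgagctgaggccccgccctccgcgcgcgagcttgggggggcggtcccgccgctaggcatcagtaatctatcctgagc
In the first Parp11 window the response element lies on the minus strand at positions -44 to -35 from the start, read on the plus strand as TTTCGATTTC, and the gamma-activated site TTCTTGGAA overlaps it at -37 to -29. Of 32851 RefSeq promoter windows of that length, 3.44% hold the response element and 8.30% the gamma-activated site. The second Parp11 window and those of Parp12, Parp1, Parp2 and Dtx3l hold neither run of letters.

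The deposited arrays resembled each other closely, with pairwise Pearson r of the log2 values between 0.980 and 0.998 across probe sets. Among the arrays of 8 h, that of JAK1 was the least like the rest, at a mean r of 0.990 against 0.993 to 0.996 for the other 6. The T cell label held, since Cd3e averaged 12.37 on the log2 scale and Cd4 averaged 11.82, and all 6 T cell markers on the array passed the filter. All 4 B cell markers passed as well, with Cd79b the highest at 9.57. Of the CD8 T cell markers, Cd8b1 was at 8.99 and Cd8a at 6.81. By contrast, 1 of 4 NK cell, 1 of 5 granulocyte, 1 of 5 macrophage and 1 of 5 dendritic cell markers passed. Of the other lists, 4 of 4 platelet, 7 of 8 skeletal muscle and 1 of 2 erythroid genes passed. Passing the filter alone therefore does not show that a cell type was present. In such bulk samples fewer cells of a type and less RNA per cell cannot be told apart.

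At 2 h the inducible members were lower with the JAK1/TYK2 class than with the JAK2/JAK3 class. Parp12, Parp14, Parp9 and Parp10 passed the test (limma, Benjamini-Hochberg adjusted p under 0.05 over all genes tested), which makes 4 of 5, with 0.692% of the 11851 genes called lower in this comparison and 0 called higher. The median difference of the 5 was -0.90 on the log2 scale, beside 0.01 over all genes tested. All 5 had values that did not overlap between the classes, as did 3.13% of all genes in that direction. Parp1 and Parp2 overlapped and were not called.

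Parp12, a mono-ADP-ribosyltransferase with RNA-binding zinc fingers that restrains several viruses, had the largest difference of the family. Its log2 intensity at 2 h was 7.45 with JAK1, 7.92 with JAK1/2, 7.79 with PAN and 7.98 with TYK2, against 9.18 with JAK2, 9.02 with IFN.6226 and 9.06 with IFN.6228. All 4 inhibitors of the JAK1/TYK2 class lay more than 1 log2 unit below the lowest of the other class, with JAK1 lowest. The class means were 7.79 ± 0.24 (SD, n = 4) and 9.08 ± 0.08 (n = 3), a difference of -1.30 (SE 0.11, 2.46-fold, limma adjusted p = 1.82e-04). By p-value Parp12 ranked 2 among all 11851 genes, behind Rsad2, which encodes the antiviral protein viperin.

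Parp14, a mono-ADP-ribosyltransferase with several macrodomains known from interleukin-4 and interferon signalling, had log2 intensities of 9.50 with JAK1, 10.29 with JAK1/2, 10.49 with PAN and 10.60 with TYK2 at 2 h, against 11.19 with JAK2, 11.30 with IFN.6226 and 11.36 with IFN.6228. The JAK1 inhibitor lay well below the other members of its own class, and the classes did not overlap. The difference was -1.06 (SE 0.19, 2.09-fold, limma adjusted p = 0.0186), between means of 10.22 ± 0.49 (SD, n = 4) and 11.28 ± 0.08 (n = 3). The call was lost without JAK2 (limma adjusted p = 0.113), IFN.6226 (0.0980) or IFN.6228 (0.215). It was also lost with the JAK3 inhibitors averaged (0.135), after quantile normalization (0.0599) and with robust moderation (0.654). The direction held in every alternative run. Without overlap between the classes, leaving out or averaging inhibitors could not reverse it, and neither could robust moderation.

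Parp10, a mono-ADP-ribosyltransferase that can act on many substrates, was at 7.87 with JAK1, 8.13 with JAK1/2, 8.15 with PAN and 8.10 with TYK2 at 2 h, against 8.80 with JAK2, 8.63 with IFN.6226 and 8.58 with IFN.6228. Inside the JAK1/TYK2 class the values of JAK1/2, PAN and TYK2 were nearly equal, and the classes did not overlap. The difference was -0.61 (SE 0.09, 1.52-fold, limma adjusted p = 0.00427), between 8.06 ± 0.13 (SD, n = 4) and 8.67 ± 0.12 (n = 3). With Parp12, it was 1 of the 2 members whose call at 2 h was kept in all 16 alternatives run.

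Parp11, a mono-ADP-ribosyltransferase of the nuclear envelope, had the smallest difference of the 5. It was at 8.77 with JAK1, 8.80 with JAK1/2, 8.80 with PAN and 8.71 with TYK2, against 9.01 with JAK2, 9.06 with IFN.6226 and 9.22 with IFN.6228, again without overlap. The difference of -0.32 (SE 0.07, 1.25-fold) did not pass over all genes (limma adjusted p = 0.0654). It passed after quantile normalization (adjusted p = 0.0385), and in no other alternative. Here the TYK2 inhibitor, not JAK1, had the lowest value.

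Parp9, which has macrodomains and works as a complex with the ubiquitin ligase DTX3L, was at 8.26 with JAK1, 9.01 with JAK1/2, 9.22 with PAN and 9.16 with TYK2 at 2 h, against 9.83 with JAK2, 9.79 with IFN.6226 and 9.82 with IFN.6228. The JAK2/JAK3 class held within 0.04 log2 units, while JAK1 was far below the rest of its class. The means were 8.91 ± 0.44 (SD, n = 4) and 9.81 ± 0.02 (n = 3), a difference of -0.90 (SE 0.17, 1.87-fold, limma adjusted p = 0.0307). The call was lost without JAK1/2 (limma adjusted p = 0.0626), JAK2 (0.200), IFN.6226 (0.134) or IFN.6228 (0.264). It was also lost after quantile normalization (0.0700), with no variance trend (0.0622), with robust moderation (0.493) and with the JAK3 inhibitors averaged (0.184). The direction stayed the same. With no overlap between the classes, leaving out or averaging inhibitors could not reverse it, and neither could the variance trend or robust moderation.

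Dtx3l, the neighbouring gene of Parp9 in the RefSeq table of GRCm38.p6, followed it at 2 h. Its log2 intensity was 10.69 with JAK1, 10.998 with JAK1/2, 10.97 with PAN and 10.89 with TYK2, against 11.48 with JAK2, 11.34 with IFN.6226 and 11.41 with IFN.6228. The classes did not overlap, and the difference of -0.52 (SE 0.07, 1.44-fold) passed the test (limma adjusted p = 0.00338).

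Parp1, the main enzyme that marks DNA strand breaks with poly-ADP-ribose, was at 9.42 with JAK1, 9.44 with JAK1/2, 9.54 with PAN and 9.57 with TYK2 at 2 h, against 9.55 with JAK2, 9.58 with IFN.6226 and 9.53 with IFN.6228. Parp2, its close relative in break repair, was at 9.27 with JAK1, 9.22 with JAK1/2, 9.30 with PAN and 9.25 with TYK2, against 9.15 with JAK2, 9.26 with IFN.6226 and 9.37 with IFN.6228. The classes overlapped in both genes. The difference was -0.06 for Parp1 (95% interval -0.20 to 0.08, limma adjusted p = 0.994) and -4.6e-04 for Parp2 (-0.15 to 0.15, adjusted p = 0.999), so the intervals leave out a change as large as that of Parp11 or of any other inducible member.

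**Figure D1:**
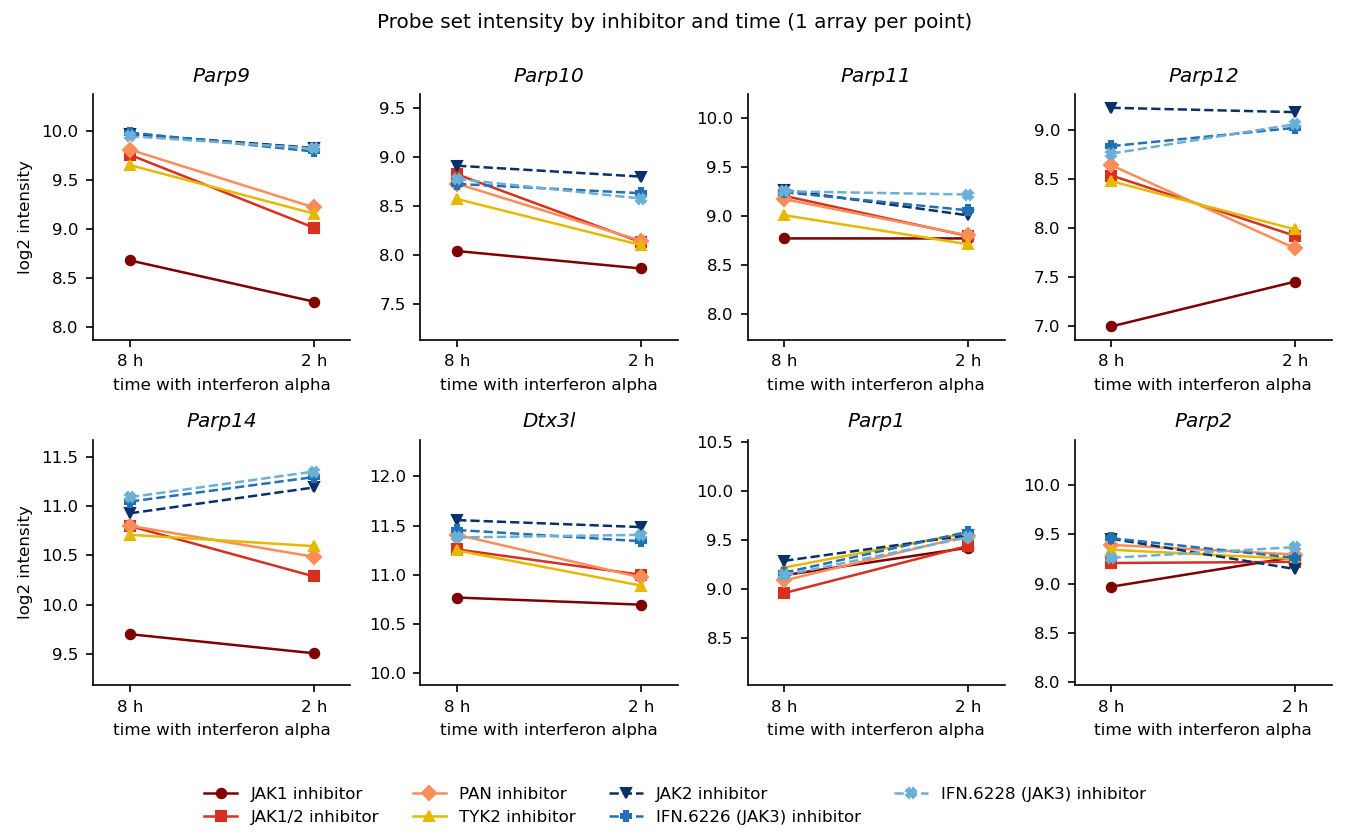
Log2 intensity (y axis, the same span of 2.5 units in every panel) of the 5 inducible members, Dtx3l, Parp1 and Parp2 at 8 h and 2 h (x axis), 1 array per point, with a line for each inhibitor, solid for the JAK1/TYK2 class and dashed for the JAK2/JAK3 class. At 2 h the solid and dashed lines are apart in all 5 inducible members and in Dtx3l, the JAK1 inhibitor is lowest in Parp9, Parp10, Parp12 and Parp14, and the lines of Parp1 and Parp2 lie together.

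At 8 h no member passed the test, and the class differences were smaller than at 2 h in all 5 inducible members. No gene at all was called (limma, 0 of 11851, with 1858 at an unadjusted p under 0.05). The classes were without overlap in Parp9, Parp11, Parp12 and Parp14, with 13.6% of all genes lower in that way at this time, and they overlapped in Parp10, Dtx3l, Parp1 and Parp2. The median difference of the 5 was -0.49, beside -0.08 over all genes.

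Parp12 was at 6.996 with JAK1, 8.53 with JAK1/2, 8.64 with PAN and 8.47 with TYK2 at 8 h, against 9.22 with JAK2, 8.83 with IFN.6226 and 8.76 with IFN.6228. Parp14 was at 9.70 with JAK1, 10.80 with JAK1/2, 10.80 with PAN and 10.71 with TYK2, against 10.93 with JAK2, 11.05 with IFN.6226 and 11.09 with IFN.6228. In both genes JAK1 stood alone at the bottom while JAK1/2, PAN and TYK2 lay just under the other class. The differences were -0.78 for Parp12 (SE 0.32, limma adjusted p = 0.307) and -0.52 for Parp14 (SE 0.22, adjusted p = 0.309).

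Parp9 was at 8.68 with JAK1, 9.76 with JAK1/2, 9.81 with PAN and 9.65 with TYK2 at 8 h, against 9.97 with JAK2, 9.98 with IFN.6226 and 9.95 with IFN.6228. Parp10 was at 8.04 with JAK1, 8.83 with JAK1/2, 8.73 with PAN and 8.57 with TYK2, against 8.91 with JAK2, 8.73 with IFN.6226 and 8.78 with IFN.6228, so that JAK1/2 and PAN had reached the range of the JAK2/JAK3 class. Parp11 was at 8.77 with JAK1, 9.21 with JAK1/2, 9.17 with PAN and 9.01 with TYK2, against 9.27 with JAK2, 9.24 with IFN.6226 and 9.25 with IFN.6228. The differences were -0.49 (SE 0.22, limma adjusted p = 0.318) for Parp9, -0.26 (SE 0.16, 0.361) for Parp10 and -0.21 (SE 0.11, 0.326) for Parp11. Without the JAK1 array at 8 h they were -0.23 for Parp9, -0.10 for Parp10 and -0.13 for Parp11, with -0.39 for Parp12 and -0.25 for Parp14.

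Dtx3l at 8 h was at 10.77 with JAK1, 11.26 with JAK1/2, 11.41 with PAN and 11.25 with TYK2, against 11.56 with JAK2, 11.45 with IFN.6226 and 11.38 with IFN.6228 (difference -0.29, SE 0.13, limma adjusted p = 0.313). Parp1 differed by -0.10 (95% interval -0.30 to 0.11) and Parp2 by -0.16 (-0.41 to 0.08). Other measures moved with the class at 8 h. The upper quartile of array intensity was 398 to 461 with the JAK1/TYK2 class against 464 to 497 with the JAK2/JAK3 class, without overlap. The lowest, 398, was that of the JAK1 array, followed by 427 with JAK1/2. Over all genes the median class difference at 8 h was -0.08 as deposited and 0.003 after quantile normalization. The mean of 8 skeletal muscle genes, 7 of them past the filter, was 6.85 to 7.43 with the JAK1/TYK2 class against 6.54 to 6.75 with the JAK2/JAK3 class. The mean of 2 erythroid genes, of which 1 passed the filter, was 6.23 to 6.38 against 6.10 to 6.22, and that of 5 dendritic cell markers, of which Itgax failed the filter at 5.49 and 1 passed, was 6.02 to 6.11 against 5.90 to 6.02. T cell markers overlapped, at 11.62 to 11.67 against 11.66 to 11.69, and so did the B cell, CD8 T cell, NK cell, granulocyte, macrophage and platelet markers. The part of these in the 8 h values was not tested, and at 2 h all the marker lists overlapped between the classes.

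**Figure D2:**
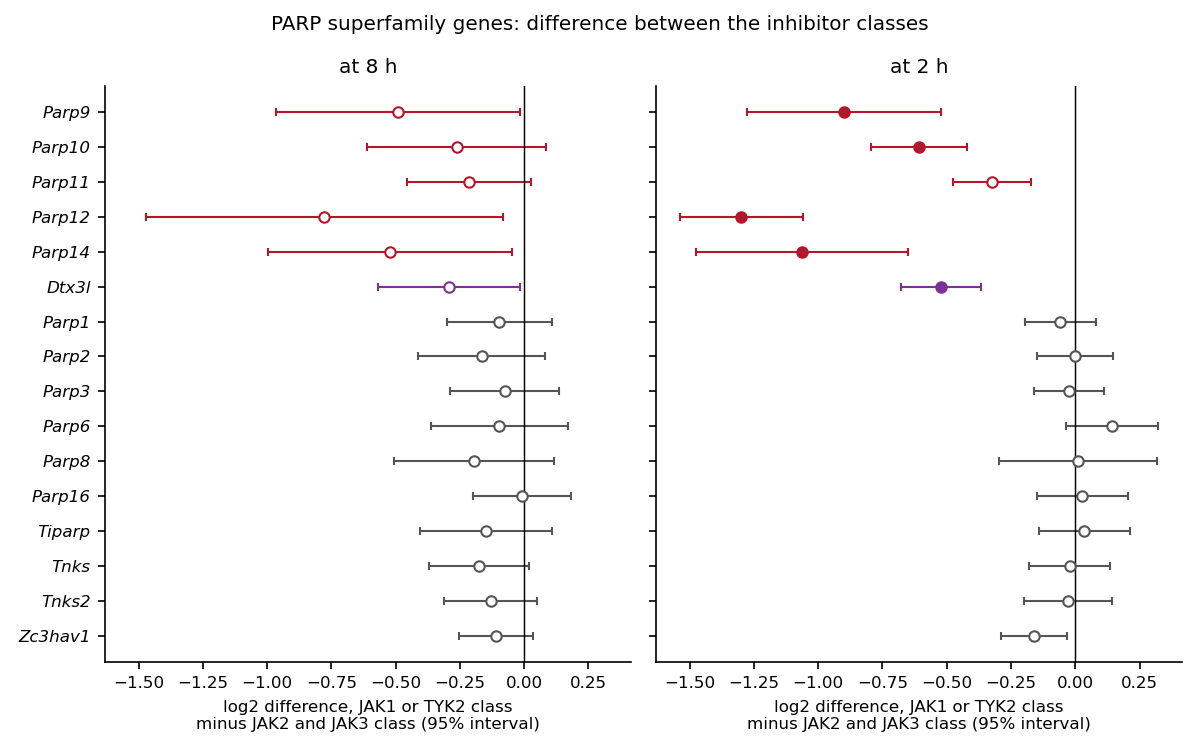
Log2 difference, JAK1/TYK2 class minus JAK2/JAK3 class, at 8 h (left) and 2 h (right), for 15 PARP superfamily genes and Dtx3l (y axis), with points for the limma estimate (n = 4 and 3 inhibitors), bars for its 95% interval and filled points for an adjusted p under 0.05. At 2 h Parp9, Parp10, Parp12, Parp14 and Dtx3l are filled and left of 0, Parp11 is left of 0 and open, and every other gene lies between -0.16 and 0.14; at 8 h all points are open.

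Between the classes, none of the PARP genes tested outside these 7 was called lower or higher at either time. Of all 11851 genes, 0.692% were called at 2 h, all lower, and 0 at 8 h. At such shares the lack of calls does not set these PARP genes apart from genes in general. Of the 9 listed, 8 were tested and 0 were called at 2 h (limma, with 1 at an unadjusted p under 0.05), with differences between -0.16 and 0.14 and a median of -0.01. The lowest was Zc3hav1, the zinc-finger antiviral protein, which has an inactive PARP domain, at -0.16 (SE 0.06, adjusted p = 0.883). Tiparp, a mono-ADP-ribosyltransferase induced by the aryl hydrocarbon receptor, was at 0.04 (SE 0.08, adjusted p = 0.994). At 8 h 0 of the 8 passed, all between -0.20 and -0.01.

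Of the genes that remove or read ADP-ribose, 0 of 13 tested passed at 2 h, with a median of -0.01, and 0 of 16 tested genes of DNA strand break repair, with a median of 0.01. Among 15 tested genes that make or use NAD, the substrate of the family, 1 was lower at 2 h. It was Nampt, the rate-limiting enzyme of NAD salvage, at -0.58 (SE 0.07, limma adjusted p = 0.00184). Among 7 tested genes of the receptor and its transcription factor complex, 1 was lower, Stat2, at -1.12 (SE 0.17, adjusted p = 0.00586), while Ifnar1, a chain of the receptor, was at 0.00 (SE 0.07). In the list of type I interferon genes 21 of 29 passed, all lower, with a median of -1.05. Of all genes 0.692% were called lower and 0 higher in this comparison. Against the median of the type I interferon list the difference of Parp12 was larger in size, and those of Parp9, Parp10 and Parp11 were smaller. That of Parp14, at -1.06 (SE 0.19), was nearly equal to it.

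Each inhibitor of the JAK1/TYK2 class was then set against the mean of the 3 inhibitors of the JAK2/JAK3 class with both times in 1 fit. With JAK1 all 5 inducible members were lower, where 8.76% of all genes were called lower and 1.04% higher. Parp12 fell by 1.79 (SE 0.21, 3.45-fold, limma adjusted p = 1.04e-04), Parp14 by 1.55 (SE 0.13, 2.93-fold, 6.61e-06), Parp9 by 1.42 (SE 0.12, 2.67-fold, 4.26e-06), Parp10 by 0.78 (SE 0.12, 1.72-fold, 0.00138) and Parp11 by 0.40 (SE 0.10, 1.32-fold, 0.0206). Dtx3l fell by 0.71 (SE 0.08, adjusted p = 1.53e-04). Parp1, at -0.09 (95% interval -0.26 to 0.07), and Parp2, at -0.21 (-0.43 to 0.02), were not called.

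The split of all genes called with JAK1 was 123 higher and 1038 lower as deposited, and 845 higher and 845 lower after quantile normalization. In that scaling Parp9, Parp10, Parp12 and Parp14 were still called lower, Parp11 was not (adjusted p = 0.0523), and Parp1 changed sign to 0.04. Parp11 was also not called without the 8 h array of the JAK1 inhibitor (-0.27, adjusted p = 0.270) or without IFN.6228 (-0.37, adjusted p = 0.0828). Without that 8 h array 352 genes were called in all, against 1161 with it.

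With JAK1/2, PAN and TYK2 no member was called, although the difference of each of the 5 was negative in every one of these contrasts. Of all genes, 0.0591% were called lower and 0.0506% higher with JAK1/2, and 0 with PAN or TYK2 (limma, with 1149, 164 and 458 genes at an unadjusted p under 0.05). Parp12 was at -0.79 with JAK1/2, -0.80 with PAN and -0.78 with TYK2, each with an SE of 0.21. Parp14 was at -0.61 with JAK1/2, -0.51 with PAN and -0.50 with TYK2 (SE 0.13 each), and Parp9 at -0.50 with JAK1/2, -0.37 with PAN and -0.48 with TYK2 (SE 0.12 each). Parp10 was at -0.26 with JAK1/2, -0.30 with PAN and -0.40 with TYK2 (SE 0.12 each), and Parp11 at -0.17 with JAK1/2, -0.19 with PAN and -0.31 with TYK2 (SE 0.10 each).

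These 3 inhibitors gave the same order of members as JAK1 did, with Parp12 lowest, followed by Parp14, Parp9, Parp10 and Parp11. For JAK1/2 the calls depended on whether the JAK1 arrays were in the fit, and on the scaling. Leaving out the JAK1 inhibitor kept the difference of Parp9 with JAK1/2 at -0.50, with an SE of 0.11 in place of 0.12. Without the JAK1 inhibitor Parp9 (adjusted p = 0.0444), Parp12 (0.0481) and Parp14 (0.0317) were called lower with JAK1/2, without its 8 h array Parp9 (0.0472) and Parp14 (0.0332), and after median centring Parp9 (0.0433) and Parp14 (0.0224).

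**Figure D3:**
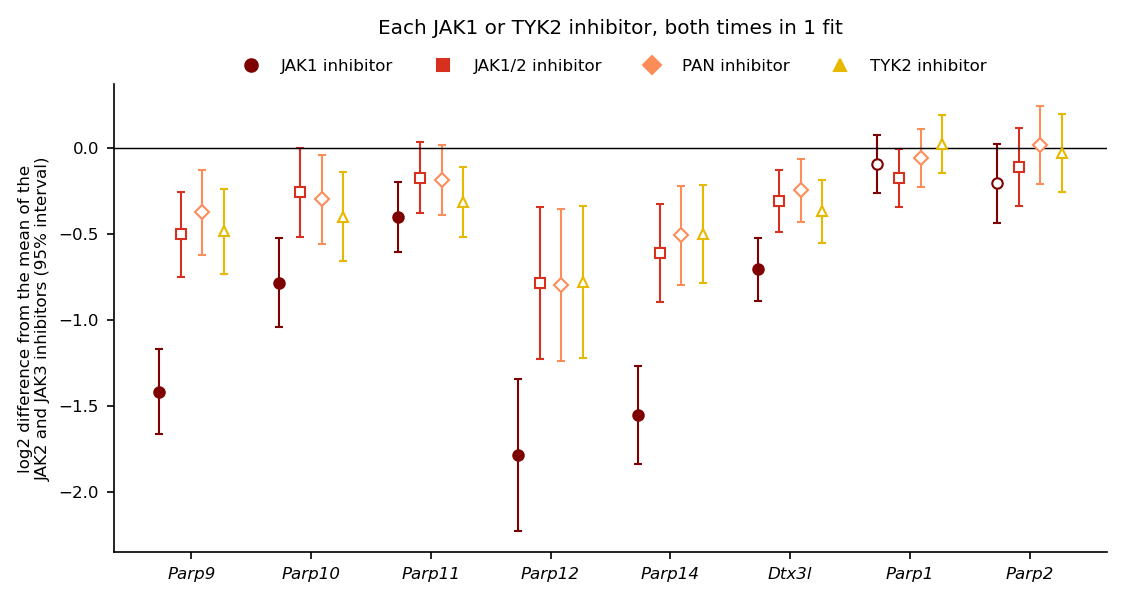
Log2 difference of each JAK1/TYK2 class inhibitor from the mean of the 3 JAK2/JAK3 class inhibitors (y axis), for the 5 inducible members, Dtx3l, Parp1 and Parp2 (x axis), from 1 fit of 14 arrays, with bars for the 95% interval and filled symbols for an adjusted p under 0.05. The JAK1 inhibitor is lowest in every inducible member, down to -1.79 in Parp12, and only its symbols are filled, while JAK1/2, PAN and TYK2 lie together in each gene.

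All 21 pairs of the 7 inhibitors were also compared, with p-values adjusted over all genes and pairs. Of the 105 results for the 5 inducible members 16 passed, and all 16 were pairs with JAK1. They were 6 in Parp9, 6 in Parp14, 3 in Parp12, 1 in Parp10 and 0 in Parp11, so in Parp9 and Parp14 the JAK1 inhibitor was lower than each of the other 6 inhibitors. The share of all genes called was 0.346% against JAK1/2, 0.506% against PAN, 0.802% against TYK2, 1.17% against JAK2, 1.27% against IFN.6226 and 1.65% against IFN.6228. Of the 75 results for pairs without JAK1, 0 passed (limma, with 35 at an unadjusted p under 0.05), where 0.0332% of all genes times pairs did.

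Ordered by the mean of both times, Parp14 was lowest with JAK1 at 9.60, followed by JAK1/2 at 10.54, PAN at 10.64, TYK2 at 10.65, JAK2 at 11.06, IFN.6226 at 11.17 and IFN.6228 at 11.22. Only the first step, from JAK1 to JAK1/2, passed after adjustment (-0.94, SE 0.16, limma adjusted p = 0.0249), and the step between the classes, from TYK2 to JAK2, was -0.41 (95% interval -0.76 to -0.06, adjusted p = 0.541). In Parp9 the first step was likewise the one that passed, with JAK1 at 8.47 and JAK1/2 at 9.39 (-0.91, SE 0.14, adjusted p = 0.0110), and TYK2 at 9.41, PAN at 9.52, IFN.6228 at 9.88, IFN.6226 at 9.89 and JAK2 at 9.90 followed. The step between the classes, from PAN to IFN.6228, was -0.37 in Parp9 (95% interval -0.67 to -0.07, adjusted p = 0.510). Both of these intervals leave out 0 before any adjustment for genes and pairs.

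Parp12 was at 7.22 with JAK1, 8.21 with PAN, 8.23 with JAK1/2, 8.23 with TYK2, 8.91 with IFN.6228, 8.93 with IFN.6226 and 9.20 with JAK2, and no step in this order passed after adjustment. The steps from JAK1 to PAN (-0.99, 95% interval -1.53 to -0.45, limma adjusted p = 0.182) and from TYK2 to IFN.6228 (-0.68, -1.22 to -0.14, 0.486) had intervals that leave out 0 before it. Parp10 was at 7.95 with JAK1, 8.34 with TYK2, 8.44 with PAN, 8.48 with JAK1/2, 8.68 with IFN.6228, 8.68 with IFN.6226 and 8.86 with JAK2. Parp11 was at 8.77 with JAK1, 8.86 with TYK2, 8.99 with PAN, 9.001 with JAK1/2, 9.14 with JAK2, 9.15 with IFN.6226 and 9.24 with IFN.6228. In all 5 members JAK1 came first and the 3 inhibitors of the JAK2/JAK3 class came last, while none of the 6 steps passed after adjustment in Parp10 or Parp11, and the step from JAK1 to TYK2 in Parp10 was -0.38 (95% interval -0.70 to -0.07). Parp1 ran from 9.20 with JAK1/2 to 9.42 with JAK2 and Parp2 from 9.12 with JAK1 to 9.36 with IFN.6226, with 0 pairs called in either.

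Between the times the members went different ways. Over all 7 inhibitors Parp9, Parp10 and Parp11 were higher at 8 h than at 2 h, 3 of the 5 inducible members, where 21.3% of all genes were called higher and 28% lower. Parp9 rose by 0.39 (SE 0.08, 1.31-fold, limma adjusted p = 6.94e-04), Parp10 by 0.33 (SE 0.08, 1.26-fold, 0.00305) and Parp11 by 0.22 (SE 0.06, 1.17-fold, 0.00919), each with a positive change in 7 of 7 inhibitors, as in 16% of all genes. In Parp11, though, the change was only 1.8e-04 with JAK1 and 0.03 with IFN.6228. Parp12, at 0.15 (SE 0.13), and Parp14, at 0.05 (SE 0.09), were not called. Parp1 fell by 0.38 (SE 0.05, 1.30-fold, adjusted p = 3.31e-05), with a negative change in all 7, as in 22.2% of genes, and Parp2 was at 0.04 (SE 0.07).

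With no pairing by inhibitor the change was not called in Parp9 (adjusted p = 0.172) or Parp10 (0.0629), and it was still called in Parp11. Parp2 was called higher after quantile normalization (0.12, adjusted p = 0.0285). Marker lists moved with time too. T cell markers were at a mean of 11.62 to 11.69 at 8 h against 11.31 to 11.41 at 2 h, B cell markers at 8.54 to 8.79 against 8.11 to 8.31, and CD8 T cell markers at 7.94 to 8.16 against 7.59 to 7.82, and their part in the changes was not tested.

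Set out by class, the change in Parp9 was 0.42 with JAK1, 0.74 with JAK1/2, 0.59 with PAN and 0.49 with TYK2, against 0.14 with JAK2, 0.19 with IFN.6226 and 0.12 with IFN.6228. In Parp14 it was 0.19 with JAK1, 0.51 with JAK1/2, 0.32 with PAN and 0.12 with TYK2, against -0.26 with JAK2, -0.25 with IFN.6226 and -0.26 with IFN.6228. These were the members in which the changes did not overlap between the classes, as in 3.14% of all genes in that direction, and in Parp14 the sign was opposite.

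In Parp12 the change was -0.46 with JAK1, 0.62 with JAK1/2, 0.85 with PAN and 0.49 with TYK2, against 0.04 with JAK2, -0.19 with IFN.6226 and -0.30 with IFN.6228, so that JAK1 had the most negative change of the 7 while the rest of its class had the most positive. In Parp10 it was 0.18 with JAK1, 0.69 with JAK1/2, 0.58 with PAN and 0.47 with TYK2, against 0.11 with JAK2, 0.09 with IFN.6226 and 0.20 with IFN.6228. In Parp11 it was 0.00 with JAK1, 0.41 with JAK1/2, 0.37 with PAN and 0.30 with TYK2, against 0.26 with JAK2, 0.18 with IFN.6226 and 0.03 with IFN.6228. In Parp10, Parp11 and Parp12 alike, the JAK1 inhibitor lay among or below the JAK2/JAK3 class.

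The class difference in the change passed in none of the members, with 0.0169% of all genes called higher (2 genes, Usp18 and Ifit1, both of the type I interferon list). It was 0.54 for Parp14 (SE 0.11, limma adjusted p = 0.316), 0.52 for Parp12 (SE 0.24, 0.464), 0.41 for Parp9 (SE 0.11, 0.462), 0.35 for Parp10 (SE 0.13, 0.462) and 0.11 for Parp11 (SE 0.12, 0.641). By p-value Parp14 ranked 14 and Parp9 ranked 64 among 11851 genes. The median of the 5 was 0.41, beside -0.09 over all genes.

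Within the JAK1/TYK2 class, 4 of the 5 inducible members were higher at 8 h than at 2 h, as were 18.4% of all genes, and 28.5% were lower. Parp9 rose by 0.56 (SE 0.07, limma adjusted p = 5.55e-05), Parp10 by 0.48 (SE 0.08, 5.43e-04), Parp14 by 0.28 (SE 0.07, 0.00785) and Parp11 by 0.27 (SE 0.08, 0.0155), while Parp12 was at 0.37 (SE 0.16, 0.0634). Within the JAK2/JAK3 class none of the 5 was called higher, where 17.3% of genes were, and Parp14 fell by 0.26 (SE 0.09, adjusted p = 0.0368), where 14.4% of genes fell. Dtx3l rose by 0.28 in the JAK1/TYK2 class (SE 0.07, adjusted p = 0.00805) and was at 0.05 in the JAK2/JAK3 class (SE 0.09). Parp1 fell by 0.39 in the JAK1/TYK2 class and by 0.35 in the JAK2/JAK3 class, where the class difference of the change was -0.04 (95% interval -0.27 to 0.19).

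**Figure D4:**
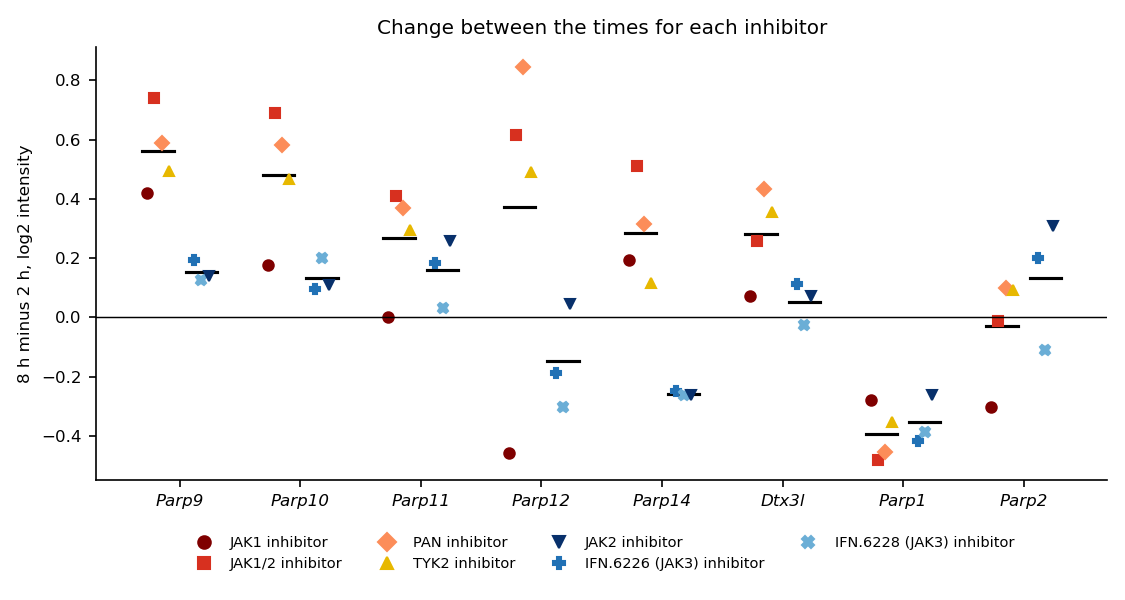
Log2 intensity at 8 h minus that at 2 h (y axis) for each inhibitor, in the 5 inducible members, Dtx3l, Parp1 and Parp2 (x axis), with the JAK1/TYK2 class on the left of each pair and the JAK2/JAK3 class on the right, and a bar for each class mean (n = 4 and 3). In Parp14 the left class is above 0 and the right class, at -0.26 to -0.25, below it, in Parp12 the JAK1 inhibitor is lowest at -0.46, and Parp1 is below 0 with all 7 inhibitors.

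Among the other PARP genes, 3 of 8 were higher and 2 lower at 8 h than at 2 h, beside the 21.3% higher and 28% lower of all genes, against which the counts of the other lists in this comparison stand too. Parp16, of the endoplasmic reticulum, rose by 0.31 (SE 0.06, limma adjusted p = 4.96e-04), Parp8 fell by 0.56 (SE 0.10, 4.76e-04) and Tnks, the poly-ADP-ribosylating tankyrase, fell by 0.24 (SE 0.06, 0.00557). Of the 13 genes that remove or read ADP-ribose 2 were higher and 6 lower, among them Nudt16 at 0.62 (SE 0.07) and Nudt5 at -0.49 (SE 0.07), hydrolases of ADP-ribose and related nucleotides, and Hpf1, the cofactor that directs Parp1 and Parp2 to serine, at -0.28 (SE 0.06). Of 16 DNA strand break repair genes 9 were lower and 2 higher, with a median of -0.19 beside 0.02 over all genes, and Parp1 changed in the direction of the larger group. Apex1, the endonuclease of abasic sites, fell by 0.41 (SE 0.06), and Lig1, the replicative DNA ligase, by 0.29 (SE 0.05). Of 15 genes that make or use NAD 5 were higher and 2 lower, of 7 receptor and transcription factor genes 5 and 2, and of 29 type I interferon response genes 27 and 1, with a median of 0.83 for the last list.

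Across the 14 arrays the inducible members followed each other. Pearson r lay between 0.73 (Parp11 and Parp14) and 0.95 (Parp9 and Parp10) over the 10 pairs among the 5, between 0.89 and 0.96 with Dtx3l, between 0.44 and 0.58 with Parp2 and between -0.47 and 0.10 with Parp1. The arrays share inhibitors and times, so these values are a description. The mean log2 intensity of the 5 at 2 h was 8.37 with JAK1, 8.83 with JAK1/2, 8.89 with PAN and 8.91 with TYK2, against 9.60 with JAK2, 9.56 with IFN.6226 and 9.61 with IFN.6228. At 8 h it was 8.44 with JAK1, 9.42 with JAK1/2, 9.43 with PAN and 9.28 with TYK2, against 9.66 with JAK2, 9.57 with IFN.6226 and 9.57 with IFN.6228. With JAK1 the 8 h and 2 h means were close, but its members went different ways, from 0.42 in Parp9 to -0.46 in Parp12, while with the other inhibitors of its class the mean was higher at 8 h.

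The genes most like this mean over the 14 arrays, by Pearson r among all genes tested, were Cmpk2 (0.992), a nucleotide kinase, Ifih1 (0.991), the RNA sensor MDA5, Zbp1 (0.984), a sensor of Z-form nucleic acids, Trim21 (0.982), an antibody receptor of the cytosol, and Eif2ak2 (0.979), the kinase PKR. Taken singly, Parp9 was most like Usp18 (0.989), Ifit1 (0.988) and Zbp1 (0.981), and Parp10 like Ddx58 (0.983), the RNA sensor RIG-I, Rnf213 (0.979) and Ifit3 (0.977). Parp12 was most like Cmpk2 (0.971), Iigp1 (0.965) and Eif2ak2 (0.961), and Parp14 like Eif2ak2 (0.984), Iigp1 (0.983) and Gm4951 (0.978). Parp11 was most like Nmi (0.955), Rsad2 (0.946) and Slfn3 (0.945). Of these, Cmpk2, Ifih1, Zbp1, Eif2ak2, Usp18, Ifit1, Ifit3, Ddx58 and Rsad2 belong to the type I interferon list.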

How the data were processed

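RNA of 14 samples was measured on 1 array each. The authors deposited 1 linear intensity per probe set and array, made with Affymetrix Power Tools and RMA per the submitters' processing notes, which give no version, so the background correction, the arrays normalized together and the genome build are not given in the sources used here. Values ran from 4.78 to 22879, with array medians of 109 to 121, and were put on the log2 scale. Titles and labels gave each sample its group.

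Of 24922 probe sets, 21425 carried 1 symbol (19752 genes), 1399 several and 2098 none. Genes were read from the first kind alone, by the brightest probe set, and those whose mean over the arrays reached the 40th percentile of all genes (6.27 on the log2 scale) were tested, 11851 in all. Tests used R 4.3.3 and limma 3.58.1 (lmFit and eBayes with trend=TRUE), with Benjamini-Hochberg adjustment over all genes tested and a threshold of 0.05. Classes were compared on 1 value per inhibitor (5 residual degrees of freedom), and times and single inhibitors in an additive fit of inhibitor and time (6 residual degrees of freedom), whose residual is their interaction plus noise. Python 3.11.15 with numpy 2.4.6, pandas 2.3.3 and matplotlib 3.10.9 served for tables and plots. The steps were also run on simulated data with independent noise and no differences between inhibitors beyond the effects put in. That setting does not gauge how the class tests handle the spread between inhibitors seen here.

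The members and the gene lists were chosen with earlier results of these data known. All 7 members and Dtx3l are named throughout, with up to 3 called genes per list and comparison, and the 5 genes most like the mean of the inducible members (3 for each member). Zc3hav1, Tiparp, Ifnar1 and single markers were singled out with their values in view. Alternatives were median centring, quantile normalization, robust moderation, no variance trend, the filter dropped or raised to the 60th percentile, probe sets of a gene averaged, 50 added before the log, the JAK3 inhibitors averaged, no pairing by inhibitor, the 8 h array of the JAK1 inhibitor left out and each inhibitor left out in turn. With 14 arrays and no repeats, their number limits the precision throughout.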

Additional observations from a re-analysis of the deposited data

Results flagged for a closer look

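With the JAK1 inhibitor 4 values lay apart from the other 3 of the JAK1/TYK2 class by more than Dixon's 95% limit for 4 samples. They were Parp10 at 2 h, at a log2 intensity of 7.87, and at 8 h Parp9 at 8.68, Parp12 at 6.996 and Parp14 at 9.70, each the lowest of its 4. They came from 21 groups looked at (7 genes, each at 2 h, at 8 h and in the change), chance puts about 1 in 20 groups past this limit, and the values share arrays. In Parp14 the change between the times had opposite signs in the classes, positive with all 4 inhibitors of the JAK1/TYK2 class and negative with all 3 of the JAK2/JAK3 class, a difference of 0.54 (SE 0.11) that did not pass over all genes (limma adjusted p = 0.316).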

How the results depend on the processing

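Of 1016 values of the members and Dtx3l under alternatives, 968 kept their direction and their side of the threshold, 22 lost a call, 11 gained one and 15 changed sign. Each of these genes had 1 probe set, so averaging probe sets could not change its difference. The filters, no variance trend, robust moderation and no pairing also left the difference as it was, and could move only the call. The 968 thus include directions fixed in advance, and values uncalled both as deposited and in the alternative. Those that changed sign were all uncalled. They were Parp2 at 2 h (0.0047 after quantile normalization, 0.0057 after median centring, 0.028 with the JAK3 inhibitors averaged, -0.057 to 0.055 with an inhibitor left out), Parp1 at 8 h (0.033 after quantile normalization), Parp1 in the class difference of the change (0.083 after quantile normalization, -0.076 to 0.0091 with an inhibitor left out), Parp1 with JAK1 (0.036 after quantile normalization), Parp2 with TYK2 (0.021 after quantile normalization) and, with an inhibitor left out, Parp1 with TYK2 (-1.7e-04 to 0.042), Parp14 over time (-0.025 to 0.10) and Parp2 over time (-0.0050 to 0.097).

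Of the 5 inducible members, 4 were called at 2 h, 2 with robust moderation, 2 with the JAK3 inhibitors averaged and 2 to 4 with an inhibitor left out (2 without JAK2, IFN.6226 or IFN.6228). Over time 3 were called, and 1 with no pairing. With JAK1/2 there were 0, and 2 after median centring, 2 without the JAK1 array at 8 h and 0 to 3 with an inhibitor left out (3 without JAK1). Of all genes, 82 were called at 2 h, 46 with robust moderation, 34 with the JAK3 inhibitors averaged and 28 to 106 with an inhibitor left out (35 without JAK2, 47 without IFN.6226, 28 without IFN.6228). For the class difference in the change there were 2, and 5 with the filter at the 60th percentile, 8 with no variance trend, 4 with robust moderation, 4 with the offset, 0 with the JAK3 inhibitors averaged and 0 to 3 with an inhibitor left out. With JAK1 there were 1161, and 352 without its 8 h array (337 without IFN.6228, 535 without IFN.6226, 678 without TYK2, 752 without PAN and 2081 without JAK2). With JAK1/2 there were 13, and 1 after quantile normalization, 44 after median centring, 0 at the 60th percentile, 1 with no trend and 76 without the JAK1 array at 8 h (0 to 87 with an inhibitor left out). With TYK2 there were 0, and 28 after median centring, 1 with the offset and 75 without that array (0 to 77 with an inhibitor left out). The cause was not tested for any of these. Changes within a class and pairs of inhibitors were run as deposited only. The comparison of times was paired by inhibitor. Between the classes, no paired analysis was possible because each inhibitor belongs to a single class and the titles number every array 1, so that the groups share fewer than 2 numbers.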
